A study of Mus musculus with 9 samples.

Results

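The Fos and Jun families supply the subunits of AP-1, a transcription factor that binds DNA as a dimer. Their 7 mouse genes are Fos, Fosb, Fosl1 and Fosl2 (Fos family) and Jun, Junb and Jund (Jun family). The members are listed by name and were chosen with earlier results of these data known. They were found through their Entrez gene identifiers and account for 7 of 18450 genes and for 9 of 65535 transcript rows in the deposited table. RNA had been sequenced from the brains of 9 mice of genotype APP/PS1, a transgenic model of amyloid deposition, and no group without the transgenes was analysed here. Of these mice, 3 were exposed to stress, 3 lived in a standard environment and serve as control, and 3 lived in an enriched environment (enriched). RNA came from the brain stem pooled with the front of the brain, so each library mixes several regions. Age, sex, the kind and length of the stress, the time between the last handling and tissue collection, and the promoter that drives the transgenes are not given in the sources used here, and one label field reads standard rearing for all 9 animals.

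Fos proteins cannot pair with each other and need a Jun partner, whereas Jun proteins can pair with themselves, with Fos proteins or with relatives such as the ATF proteins. In the brain, Fos, Fosb and Junb are immediate early genes: synaptic activity and calcium entry switch them on within minutes, through CREB and serum response factor bound to their promoters, and their messengers are short-lived. Jund messenger is present constitutively. Fosb also gives a truncated protein, DeltaFosB, which is unusually stable and gathers in neurons after repeated stimulation. The comparisons ask how the messengers of these subunits relate to stress and to enrichment.

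The depth per library was 15851833 to 17213008 estimated counts, which allowed 14694 genes to be tested. Levels are given as CPM (reads relative to library size, scaled between libraries by TMM), at 15.9 to 16.8 reads per CPM. Where genes are compared with each other they are given as TPM, which also takes transcript length into account. Each title carries its own animal code, but nothing further says how the replicates arose, so p-values measure the spread between these samples. Because whole tissue was sequenced, fewer cells of a type and less RNA per cell cannot be told apart. Libraries differed in the tissue they held. Summed markers of the olfactory epithelium came to 80.2 CPM in enriched replicate 1, 64.9 CPM in enriched replicate 3 and 1.93 to 6.83 CPM in the other 7 libraries. Summed choroid plexus markers spanned 25.1 to 3730 CPM. Neuronal markers were high in every library (3670 to 5230 CPM). The animal codes begin with C in all 3 stress libraries and control replicate 1, and with D in the other 5. The sources used here do not explain the letter, and between stress and enriched libraries it cannot be told apart from the group. Enriched replicates 1 and 3 stand apart in their olfactory markers, and the results for Fosb and Fosl2 are also given without them.

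On the length-scaled TPM scale the order of the members was the same in every library at its top and bottom. Jund led in 9 of 9 libraries with 81.3 TPM ± 9.06 (SD over 9 libraries), and its lowest value, 71.2 TPM, lay above the highest value of Junb, 63.6 TPM. Junb (48.5 TPM ± 10.5) and Jun (46.0 TPM ± 5.59) did not differ beyond their spread, with Junb the higher in 5 of 9 libraries. Fos followed at 27.7 TPM ± 10.7 and was below Jun in 9 of 9 libraries, although the ranges of both genes over all libraries overlapped. Fosl2 (5.53 TPM ± 2.93) and Fosb (4.88 TPM ± 2.5) came next, in overlapping ranges, with Fosl2 the higher in 7 of 9 libraries. Fosl1 was last at 0.0811 TPM ± 0.0916.

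The 4 Fos family genes together reached 25.7 TPM ± 4.44 in control, 33.7 TPM ± 13.0 in stress and 55.3 TPM ± 1.83 in enriched libraries (SD, n = 3 each). Their summed level was between 22.3 and 30.7 TPM in control and between 53.9 and 57.4 TPM in enriched libraries, so these ranges were apart. In the stress group, replicate 2 held 48.7 TPM and replicates 1 and 3 held 25.8 and 26.5 TPM. The 3 Jun family genes summed to 172 TPM ± 5.51, 173 TPM ± 7.0 and 183 TPM ± 7.55 in control, stress and enriched libraries. As a share of the TPM of all 7 genes, the Fos family made up 13.0% ± 1.82 in control, 16% ± 4.74 in stress and 23.3% ± 1.19 in enriched libraries. These sums are descriptions and were not tested. On log2(TPM + 1) the median of all genes lay at 0.16 in enriched against control and 0.12 in stress against control. The sums are to be read beside that shift.

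**Figure D1:**
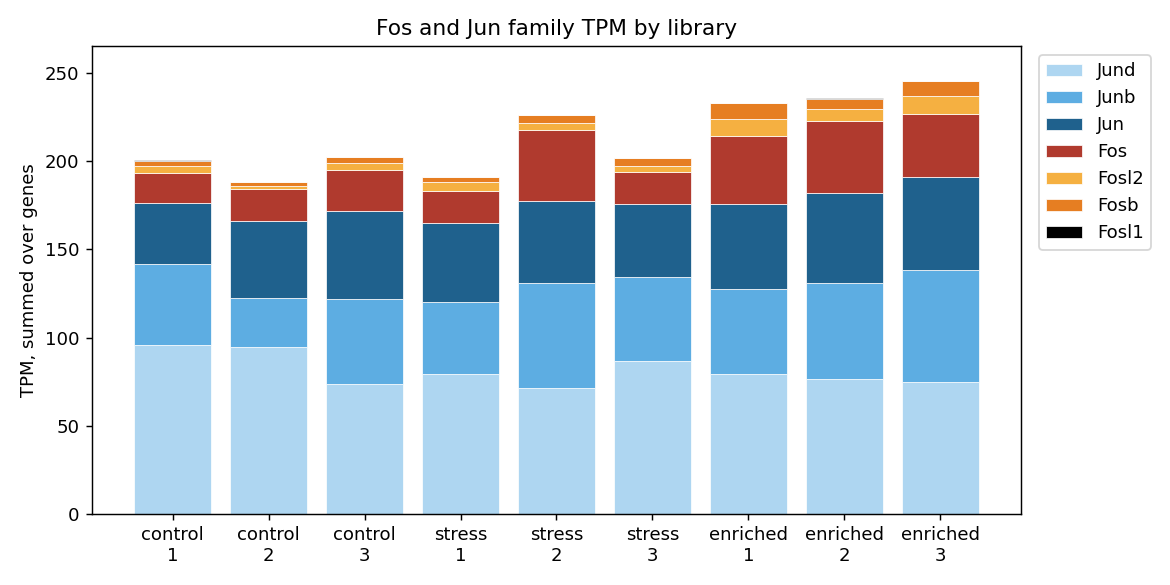
Stacked TPM of the 7 genes in each of the 9 libraries, with Jun family genes in blue at the base and Fos family genes in red, orange and black above. The Fos family part of the bar is 53.9 to 57.4 TPM in enriched libraries and 22.3 to 30.7 TPM in control libraries, while the Jun family part is 165 to 191 TPM throughout; Fosl1 is too low to be seen.

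Fos (chr12:85473890-85477274, GRCm38.p6, 1 transcript), the classical marker of recently active neurons, was higher in every enriched library than in every control library. It measured 21, 19.1 and 23.3 CPM in control replicates 1 to 3, 16.9, 38.0 and 20.0 CPM in stress replicates 1 to 3, and 38.8, 38.3 and 33.4 CPM in enriched replicates 1 to 3. Stress replicate 2 lay inside the enriched range, and the other stress libraries lay around the control range. Group means were 21.1 CPM ± 2.11 (control), 25.0 CPM ± 11.4 (stress) and 36.8 CPM ± 3.0 (enriched; SD, n = 3 each). The enriched mean corresponds to 1.74-fold the control level, a log2 fold change of 0.80 ± 0.26 (SE), with a 95% interval from 0.22 to 1.38. In the quasi-likelihood test of edgeR, with Benjamini-Hochberg adjustment over 14694 genes, the adjusted p was 0.236 (unadjusted 0.0115), so Fos did not pass the threshold of 0.05. Stress against control gave a log2 fold change of 0.24 ± 0.26 (interval -0.34 to 0.82, adjusted p = 0.682, same edgeR test), and without stress replicate 2 it was -0.20. Stress against enriched gave -0.56 ± 0.26 (interval -1.13 to 0.01, adjusted p = 0.999, same edgeR test), which became -1.0 without stress replicate 2 and -0.35 without stress replicate 1.

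The immediate promoters of the inducible members are printed because regulators such as CREB are known to act there. Capitals mark TGACG, the core of the cyclic AMP response element (CRE) that CREB recognises, TATAAA, the TATA box, and, in Jun, TGACATCA, a variant of the AP-1 site. Each sequence is the coding strand, 5′ to 3′, from the RefSeq promoter table of GRCm38.p6. The stretches of Fos (chr12:85473740-85473889), Junb (chr8:84978749-84978898) and Jun (chr4:95052223-95052372) end directly before the annotated start, and that of Fosb is a 30-base piece (chr7:19310089-19310118). The Fosb piece lies before the start used in the promoter table (base 19310045), but inside the annotated gene, whose outermost end is at base 19310118. It is thus promoter with respect to that start only.
Fos: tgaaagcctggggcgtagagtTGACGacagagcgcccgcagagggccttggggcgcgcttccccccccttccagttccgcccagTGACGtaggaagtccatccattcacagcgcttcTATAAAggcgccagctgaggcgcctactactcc
Fosb: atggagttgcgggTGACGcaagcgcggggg
Junb: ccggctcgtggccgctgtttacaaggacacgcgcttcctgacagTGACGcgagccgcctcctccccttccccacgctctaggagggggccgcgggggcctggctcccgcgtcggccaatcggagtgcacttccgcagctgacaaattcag
Jun: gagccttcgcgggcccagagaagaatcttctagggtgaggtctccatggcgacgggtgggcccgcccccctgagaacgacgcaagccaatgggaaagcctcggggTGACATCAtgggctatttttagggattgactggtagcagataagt
Fos held TGACG at positions -129 to -125 and -66 to -62 from its start, and TATAAA at -33 to -28. Fosb held TGACG at -60 to -56 from the start used in the table, Junb at -106 to -102 (and TATAAA at 0 to 5, where 0 is the first transcribed base), and Jun held TGACATCA at -45 to -38. Both strands of each window of 300 bases (250 before the start and 50 from it on) were searched for TGACG, the full CRE TGACGTCA (which contains it), TGACTCA or TGAGTCA (AP-1), TGACATCA, TATAAA and the CArG box bound by serum response factor. Of 32851 such windows in the table, 20.8% held TGACG, 1.79% the full CRE, 5.2% an AP-1 site, 3.62% TGACATCA, 13.6% TATAAA and 1.63% a CArG box. TGACG is therefore common, and its presence in these windows is a description, not evidence of binding. The windows of Fosl2 and Jund held none of these letters, and 6 of 7 members had a window in the table (Fosl1 did not). No member window held a CArG box, the full CRE, TGACTCA or TGAGTCA. Sites more than 250 bases before the start were outside the search, so it cannot speak to serum response factor sites further upstream.

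Fosb (chr7:19302696-19310118), which pairs with Jun proteins and has been tied to lasting neuronal adaptation, was also higher in every enriched library than in any other library. Its level was 7.18, 4.65 and 5.93 CPM in control replicates 1 to 3, 5.04, 7.38 and 9.22 CPM in stress replicates 1 to 3, and 17.0, 10.7 and 15.6 CPM in enriched replicates 1 to 3. The enriched libraries overlapped neither of the other groups, while stress and control overlapped each other. The means were 5.92 CPM ± 1.26, 7.22 CPM ± 2.1 and 14.4 CPM ± 3.28 in control, stress and enriched libraries. Enriched against control was 2.43-fold, a log2 fold change of 1.28 ± 0.26 (SE; interval 0.69 to 1.87), which ranked 14 by p among 14694 genes. Its Benjamini-Hochberg adjusted p by edgeR was 0.236 (unadjusted 0.000694), not past the threshold. DESeq2 on the same counts gave an adjusted p of 0.0114 and so called it, among 40 of 14684 genes called. Without control replicate 3 edgeR gave an adjusted p of 0.0442, a setting in which 1586 of 14853 genes were called. Stress against control was 0.29 ± 0.27 (interval -0.31 to 0.88, adjusted p = 0.639, edgeR; 0.07 without stress replicate 3), and stress against enriched was -1.0 ± 0.26 (interval -1.58 to -0.41, adjusted p = 0.999, unadjusted 0.00346, edgeR). With enriched replicate 2 as the only enriched library, a setting chosen after seeing the data in which the lone library is assumed to vary like the other groups, the enriched difference from control was 0.85 ± 0.36 (adjusted p = 0.698, edgeR) and the stress difference from enriched was -0.56 ± 0.36.

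All 3 annotated Fosb transcripts had a row, and they were used to look at the split between full-length FosB and DeltaFosB. The stretch whose removal from the last exon yields the DeltaFosB messenger is printed in capitals, with 20 bases on each side, on the coding strand (chr7:19304987-19305166 for the whole piece, chr7:19305007-19305146 for the capitals; GENCODE M21 on GRCm38).
Fosb: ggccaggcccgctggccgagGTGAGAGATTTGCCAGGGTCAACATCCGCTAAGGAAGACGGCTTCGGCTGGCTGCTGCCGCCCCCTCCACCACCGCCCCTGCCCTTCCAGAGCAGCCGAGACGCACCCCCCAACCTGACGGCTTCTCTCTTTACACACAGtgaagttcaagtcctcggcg
It is 140 bases long, begins with GT and ends with AG like an intron, and lies in exon 4 of the 3782-base GENCODE transcript, of which it makes up 3.7%. It was absent from 2 of the 7 GENCODE transcripts of Fosb. Where it is removed, the annotated stop codon follows it at once (chr7:19305004-19305006), whereas the full-length stop lies further on (chr7:19304841-19304843). Transcript lengths were worked out from the deposited reads per TPM. They gave a median of 3773 bases for NM_008036.2 (5 libraries) and 3628.5 bases for NM_001347586.1 (6 libraries), a difference of 144.5 bases, while XM_006539543.3 came to 3733 bases (3 libraries). By length NM_001347586.1 was taken as the DeltaFosB form, although its sequence was not read here. Whether XM_006539543.3 holds the 140-base stretch was not checked, so its place in this split is unknown.

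The full-length transcript NM_008036.2 held 158.22, 168.66 and 187.77 estimated counts in enriched replicates 1 to 3, 0, 26.05 and 0 in control replicates 1 to 3, and 0, 46.5 and 124.58 in stress replicates 1 to 3. The shorter NM_001347586.1 held 124.78, 11.34 and 60.23 in enriched, 23.01, 50.95 and 40.9 in control, and 35.64, 51.74 and 26.42 in stress replicates 1 to 3. XM_006539543.3 held 0 in all 3 enriched libraries, 95.99, 0 and 57.1 in control and 47.36, 21.76 and 0 in stress replicates 1 to 3. The gene total was a whole number of reads in 9 of 9 libraries (within 0.02), whereas 8 of the 27 transcript values were exactly 0, so the gene total is better determined than its division among transcripts. A 0 for 1 of the 2 longer transcripts may be a failed estimate, and their sum was therefore set against the short form as well. As the form of XM_006539543.3 is unknown, that sum need not be full-length FosB alone.

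The short form measured 1.19 TPM ± 0.512 in control, 1.3 TPM ± 0.517 in stress and 2.21 TPM ± 1.81 in enriched libraries (SD, n = 3 each). The other 2 transcripts together measured 1.7 TPM ± 0.863, 2.54 TPM ± 1.06 and 5.71 TPM ± 0.867. Their enriched range, 4.88 to 6.61 TPM, lay above the control and stress ranges (0.78 to 2.49 and 1.59 to 3.68 TPM), while the ranges of the short form overlapped in all groups. As a share of Fosb TPM, the short form was 43.1% ± 23.7 in control, 35.3% ± 14.9 in stress and 25.6% ± 19.3 in enriched libraries. By exact permutation (two-sided, smallest possible p 0.1 with 3 against 3), p was 0.5 for enriched against control, 0.7 for stress against control and 0.7 for stress against enriched. The share of NM_008036.2 was 11% ± 19.0 in control, 40.0% ± 41 in stress and 74.4% ± 19.3 in enriched libraries, with exact permutation p of 0.1, 0.4 and 0.3 for enriched against control, stress against control and stress against enriched. Across 40622 transcripts tested with edgeR, no Fosb transcript passed in any comparison, against a background of 0.0% called in each. Unadjusted, XM_006539543.3 alone had a p under 0.05, in enriched against control (0.0364), where 8.23% of all transcripts did, against 4.53% in stress against control and 3.7% in stress against enriched. With 3 libraries a group the exact permutation test could not pass 0.05 for any share.

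**Figure D2:**
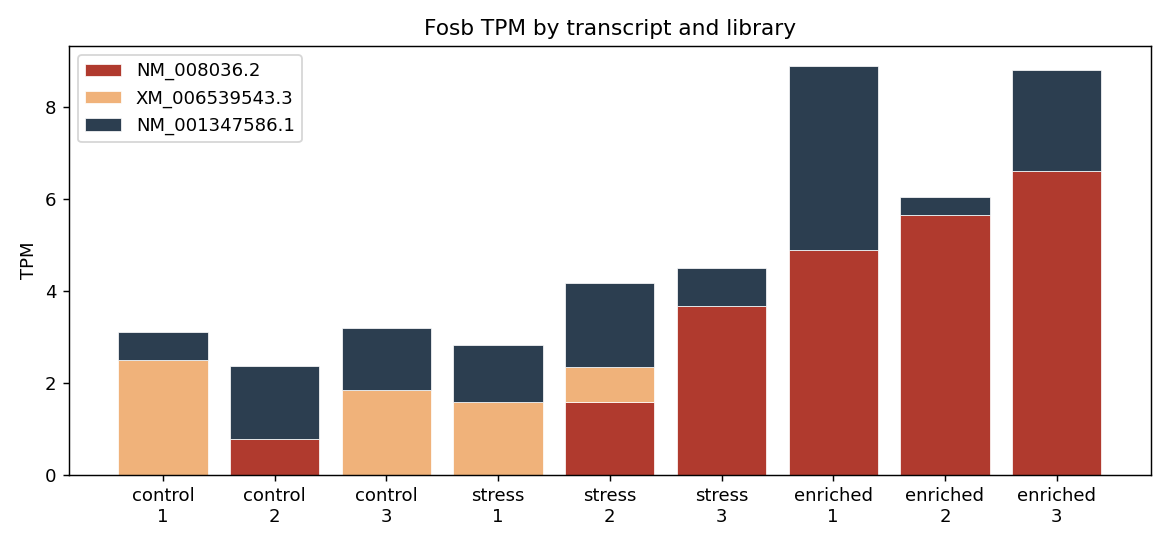
Deposited TPM of the 3 Fosb transcripts by library, stacked, with 3 libraries each of control, stress and enriched mice. NM_008036.2 is highest in the enriched libraries and XM_006539543.3 is at 0 there, while the shorter NM_001347586.1 overlaps between groups (0.4 to 4.01 TPM in enriched and 0.61 to 1.59 TPM in control libraries).

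Fosl2 (chr5:32136472-32157840), which encodes Fra-2, a slower and longer-lasting partner of Jun proteins, was likewise higher in every enriched library than in any other. It measured 13.9, 6.34 and 12.3 CPM in control replicates 1 to 3, 14.8, 12.3 and 11.7 CPM in stress replicates 1 to 3, and 31.4, 18.8 and 29.2 CPM in enriched replicates 1 to 3. All 3 enriched libraries lay above all other libraries, and control replicate 2 was the lowest of the 9. The means were 10.9 CPM ± 3.98, 12.9 CPM ± 1.61 and 26.5 CPM ± 6.7 in control, stress and enriched libraries. Enriched against control was 2.44-fold, a log2 fold change of 1.29 ± 0.28 (SE; interval 0.66 to 1.92), ranked 25 by p. The Benjamini-Hochberg adjusted p by edgeR was 0.236 (unadjusted 0.0011), and DESeq2 gave 0.014 (40 of 14684 genes called). Without control replicate 3 edgeR gave an adjusted p of 0.0436 (1586 of 14853 genes called). Stress against enriched was -1.03 ± 0.28 (interval -1.66 to -0.41, adjusted p = 0.999, unadjusted 0.00426, edgeR), and stress against control was 0.25 ± 0.28 (interval -0.38 to 0.89, adjusted p = 0.692, edgeR). With enriched replicate 2 alone, the difference from control was 0.79 ± 0.38 (adjusted p = 0.698, edgeR) and the stress difference from enriched was -0.54 ± 0.38. The stress difference from control was -0.02 without control replicate 2 and -0.10 with the code letter in the titles as a covariate.

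Fosl1 (chr19:5447698-5455938), which encodes Fra-1, was barely detected and was not tested. It held at most 3.28 estimated counts in a library. Its level was 0.121, 0 and 0.0605 CPM in control replicates 1 to 3, 0.121, 0 and 0 CPM in stress replicates 1 to 3, and 0.18, 0.0595 and 0 CPM in enriched replicates 1 to 3. In the 4 libraries at 0, a count of 0 allows a level of up to 0.181 to 0.189 CPM (3 counts; counting error only), above the highest value seen, so no difference between groups was detectable at this depth.

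Jun (chr4:95049036-95052222), the prototype Jun protein and target of the JNK kinases, had similar levels in all groups. Control replicates 1 to 3 gave 67.8, 73.7 and 79.3 CPM, stress replicates 1 to 3 gave 68.7, 69.8 and 71.0 CPM, and enriched replicates 1 to 3 gave 78.3, 75.5 and 78 CPM. The stress libraries lay just below the enriched libraries without overlap, and the control libraries spanned both. The log2 fold change was 0.07 ± 0.09 for enriched against control (interval -0.12 to 0.26, adjusted p = 0.617), -0.08 ± 0.09 for stress against control (interval -0.27 to 0.12, adjusted p = 0.696) and -0.15 ± 0.09 for stress against enriched (interval -0.34 to 0.05, adjusted p = 0.999), all by edgeR. The stress difference from control was 0.06 on log2(TPM + 1), where the median of all genes was 0.12, and 0.04 with the code letter as a covariate.

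Junb (chr8:84976909-84978748), an immediate early gene that can restrain Jun, varied more within groups than between them. It measured 48.4, 25.1 and 41.4 CPM in control replicates 1 to 3, 33.5, 48.2 and 44.1 CPM in stress replicates 1 to 3, and 41.5, 43.5 and 50.9 CPM in enriched replicates 1 to 3. All groups overlapped, and control replicate 2 was again the lowest library. The log2 fold change was 0.24 ± 0.22 for enriched against control (interval -0.26 to 0.74, adjusted p = 0.507), 0.13 ± 0.22 for stress against control (interval -0.37 to 0.63, adjusted p = 0.801) and -0.11 ± 0.22 for stress against enriched (interval -0.61 to 0.39, adjusted p = 0.999), all by edgeR. Without control replicate 2 the stress difference from control was -0.10 and the enriched difference 0.01, and with the code letter the stress difference was -0.21.

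Jund (chr8:70697739-70700616, with a row for 1 of 2 annotated transcripts), the constitutive member and a partner in AP-1 of resting cells, ran the other way in value. It measured 168, 142 and 104 CPM in control replicates 1 to 3, 107, 95.4 and 133 CPM in stress replicates 1 to 3, and 115, 101 and 99.5 CPM in enriched replicates 1 to 3. The highest 3 libraries were control replicates 1 and 2 and stress replicate 3, and the groups overlapped. Enriched against control was -0.39 ± 0.18 (interval -0.79 to 0.01, adjusted p = 0.246, unadjusted 0.0529), stress against control -0.30 ± 0.18 (interval -0.70 to 0.10, adjusted p = 0.546) and stress against enriched 0.09 ± 0.18 (interval -0.31 to 0.49, adjusted p = 0.999), all by edgeR. Without control replicate 3 the enriched difference was -0.56 with an adjusted p of 0.0479 (edgeR), where 1586 of 14853 genes were called. Without control replicate 1 that difference was -0.24 with an adjusted p of 0.625 (edgeR). With the first principal component of all genes as a covariate its sign turned to 0.24. The 3 libraries highest in Jund were also the 3 with the lowest slope of log2 CPM on log2 transcript length (-0.223, -0.077 and -0.073, against 0.02 to 0.11 in the other 6), and with the length trend removed from each library the enriched difference was -0.39 and the stress difference -0.30, as before. Jund totals were whole in 5 of 9 libraries, so some reads were shared by estimation with transcripts outside its row.

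**Figure D3:**
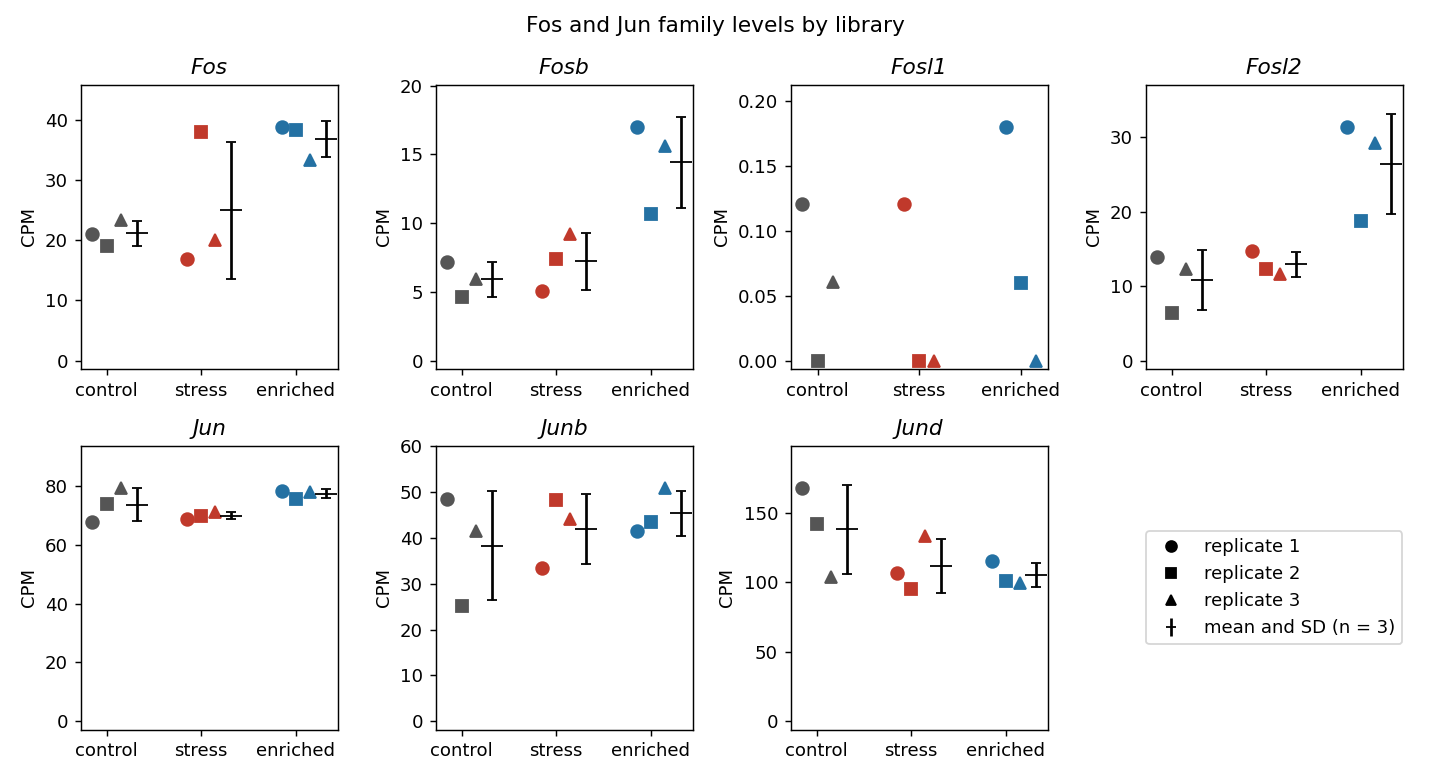
CPM (reads relative to library size, TMM-scaled) of each member, with 1 symbol per library, 3 replicates a group, and the mean with SD beside them (none for Fosl1). Fosb and Fosl2 are higher in all 3 enriched libraries than in the other 6, Fos overlaps enriched in stress replicate 2 (38.0 CPM), and Jun, Junb and Jund overlap between control and enriched.

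Counted over the 6 members tested, none passed the adjusted threshold in stress against control, where 0.0% of all genes passed, and none passed unadjusted, where 7.98% of genes did (4.2% higher and 3.78% lower). No member had groups that did not overlap, against 9.84% of genes (5.19% higher and 4.65% lower). Their median log2 fold change was 0.18, against 0.02 over all genes. In enriched against control, none passed the adjusted threshold (0.0% of genes), but 3 passed unadjusted on the higher side (Fos, Fosb and Fosl2), against 9.93% of genes on that side (10.4% on the lower side and 20.4% in all). The same 3 were the members whose enriched and control values did not overlap, against 12.5% of genes not overlapping on the higher side (13.6% on the lower side and 26.1% in all), and the median over the members was 0.52 (all genes 0.02). In stress against enriched, none passed the adjusted threshold (0.0%), 2 passed unadjusted on the lower side (Fosb and Fosl2), against 1.4% of genes (1.25% on the higher side and 2.64% in all). On the lower side 3 did not overlap (Fosb, Fosl2 and Jun), against 5.42% of genes (5.04% on the higher side and 10.5% in all). The median there was -0.35 (all genes 0.01). Stress and enriched are both set against the same 3 control libraries, so these comparisons share them. Unadjusted p under 0.05 was found for 1172, 2994 and 388 genes in stress against control, enriched against control and stress against enriched, while DESeq2 called 7, 40 and 0 genes after adjustment. On log2(TPM + 1) the median of all genes lay at 0.12, 0.16 and -0.04 in these comparisons, and the share of unadjusted calls that were higher was 79.1%, 84.6% and 44.4%, against 52.6%, 48.7% and 47.2% in the counts. Differences on the TPM scale are therefore to be read relative to that median.

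**Figure D4:**
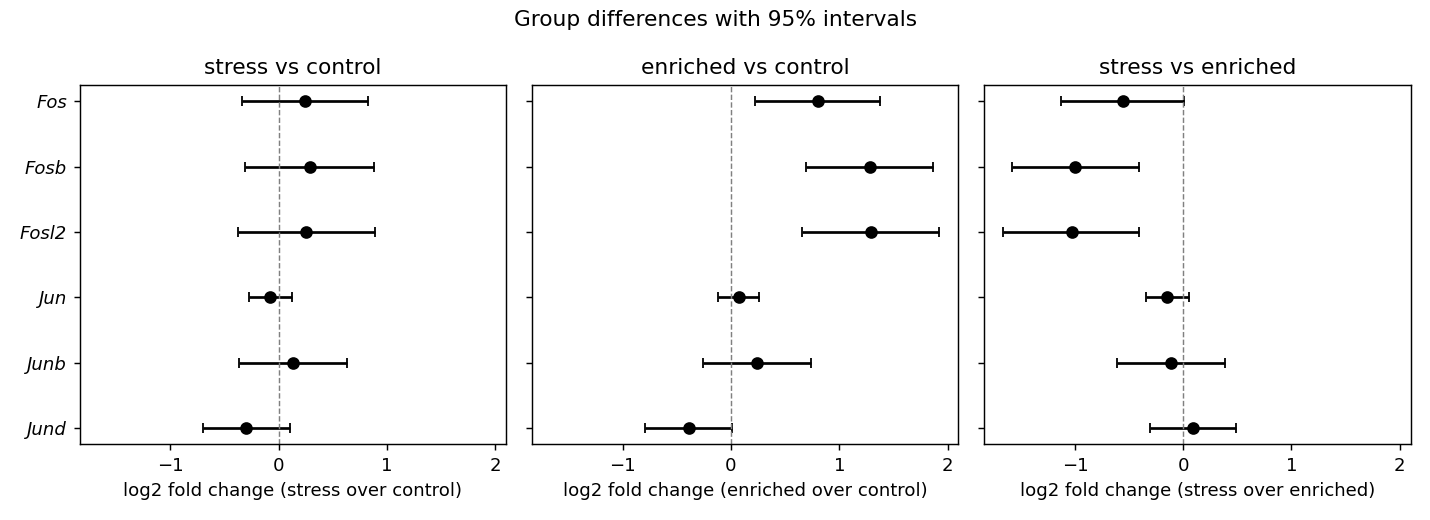
Log2 fold change with its 95% interval for the 6 tested members (edgeR, 3 libraries a group), one panel per comparison. The intervals of Fos, Fosb and Fosl2 lie above 0 in enriched against control, while those of Jun, Junb and Jund include 0, and the panel of stress against control has every interval crossing 0.

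The levels of Fosb and Fosl2 were set beside the makeup of the libraries. Summed olfactory bulb markers (7 of 8 with a row) were 245, 93.9 and 454 CPM in control libraries 1 to 3, 378, 480 and 199 CPM in stress libraries 1 to 3, and 639, 391 and 547 CPM in enriched libraries 1 to 3. In enriched against control, 7 of 7 of these markers had a log2 fold change above 0, with a median of 1.24. Control replicate 2 was lowest in this sum and also lowest in Fosb, Fosl2 and Junb, and enriched replicates 1 and 3 were highest in it and in Fosb and Fosl2. Other libraries ran otherwise. Stress replicate 2 (480 CPM) and control replicate 3 (454 CPM) lay above enriched replicate 2 (391 CPM) in this sum. They were below it in Fosb (7.38 and 5.93 against 10.7 CPM) and in Fosl2 (12.3 and 12.3 against 18.8 CPM). Olfactory epithelium markers, high in enriched replicates 1 and 3, summed to 2.62 CPM in enriched replicate 2, inside the 1.93 to 6.83 CPM of control and stress libraries. In that replicate Fosb was at 10.7 CPM and Fosl2 at 18.8 CPM, and the highest control or stress library had 9.22 and 14.8 CPM. No marker was at 0 in all libraries. Striatal markers were at 274 to 396 CPM in control, 169 to 315 CPM in stress and 203 to 240 CPM in enriched libraries, with 1 of 6 above 0 in enriched against control. Of the brain stem markers 0 of 7 were above 0 there (median -1.06; 26.3 to 109 CPM in control, 20.2 to 137 CPM in stress and 23.8 to 70.5 CPM in enriched libraries). Of the endothelial markers 6 of 6 were above 0 (median 0.93; 76.1 to 108 CPM in control, 131 to 303 CPM in stress and 92.1 to 180 CPM in enriched libraries). Of the cortical markers 6 of 6 were above 0 in enriched against control (median 0.45; 879 to 1180 CPM in control and 1010 to 1240 CPM in enriched libraries). Of the oligodendrocyte markers 0 of 4 were above 0 there (median -0.25). Cerebellar markers, of a region the tissue description does not name, were at 2390 to 2960 CPM in control, 1590 to 3380 CPM in stress and 2070 to 2710 CPM in enriched libraries. The part of tissue makeup in the Fosb and Fosl2 values was not tested. Choroid plexus markers were at 3060 to 3730 CPM in control, 351 to 1500 CPM in stress and 25.1 to 2130 CPM in enriched libraries, and neuronal markers at 3670 to 4970, 4550 to 5210 and 4610 to 5230 CPM.

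**Figure D5:**
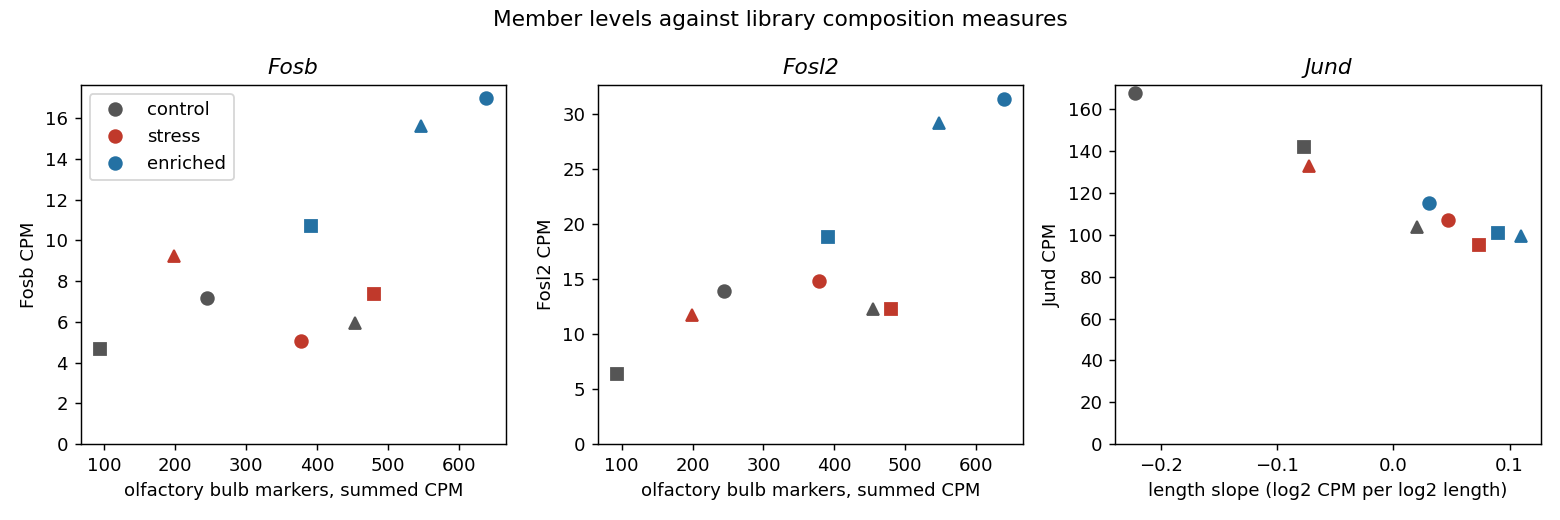
Levels of members against the makeup of each library, with 1 symbol per library; Fosb and Fosl2 CPM are plotted against summed olfactory bulb marker CPM, and Jund CPM against the slope of log2 CPM on log2 length. Enriched replicates 1 and 3, the highest in Fosb and Fosl2, are also highest in olfactory bulb markers (639 and 547 CPM), and control replicate 2, lowest in both genes, is lowest in these markers (93.9 CPM). Stress replicate 2 (480 CPM) and control replicate 3 (454 CPM) exceed enriched replicate 2 (391 CPM) in these markers but are lower in both genes. Jund is highest (168 CPM) at the lowest slope (-0.223).

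Other genes of the pathway were read from 6 lists, in which no gene passed the adjusted threshold in any comparison. The lists were chosen with earlier results of these data known, so their counts beside the shares of all genes are descriptions. Among 13 other immediate early genes, all tested, 6 passed unadjusted on the higher side and 0 on the lower side in enriched against control, against 9.93% and 10.4% of all genes, with a median log2 fold change of 0.60. Egr2, a zinc finger factor induced by activity, was at 0.966 to 1.81 CPM in control and 3.75 to 8.09 CPM in enriched libraries, a log2 fold change of 2.06 ± 0.46 (unadjusted p = 0.0012, adjusted p = 0.236, edgeR). Ier2 lay lower in value, at -0.40 ± 0.21. In stress against enriched, 0 were higher and 5 lower unadjusted (1.25% and 1.4% of all genes; median -0.54), led by the nuclear receptor gene Nr4a3 at -1.15 ± 0.24 (unadjusted p = 0.000711, adjusted p = 0.999, edgeR), with Ier2 at 0.12 ± 0.21. In stress against control, where 4.2% of all genes were higher and 3.78% lower, 1 was higher (Npas4, a neuron-specific activity factor, 1.44 ± 0.59) and 2 lower (Nr4a2 at -0.64 ± 0.22 among them).

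Of 13 factors that act on the Fos and Jun promoters, 3 passed unadjusted on the higher side and 0 on the lower side in enriched against control (9.93% and 10.4% of all genes, also for the lists that follow), with all 13 above 0 and a median of 0.32, led by the SRF coactivator Mrtfb at 0.55 ± 0.20. In stress against control none passed (Elk4 0.59 ± 0.30, Srf -0.05 ± 0.11), and in stress against enriched none passed (Mef2d -0.23 ± 0.12). For this list and those that follow, the shares of all genes were 4.2% higher and 3.78% lower in stress against control. In stress against enriched they were 1.25% and 1.4%. Of 16 kinases, 5 passed higher and 1 lower in enriched against control (median 0.15), with Map2k2 at -0.35 ± 0.15. Stress against control gave 2 higher and 0 lower (Map2k4 0.26 ± 0.10, Map2k2 -0.29 ± 0.15), and stress against enriched 0 in each direction (Rps6ka1 0.17 ± 0.20, Rps6ka2 -0.20 ± 0.09). Dimer partners, 13 of 17 tested, gave 1 higher and 1 lower in enriched against control (Atf4 -0.28 ± 0.10), 0 and 1 in stress against control (Atf4 -0.23 ± 0.10) and 0 in stress against enriched (Mafk 0.26 ± 0.22, Atf3 -0.51 ± 0.25).

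Genes that turn over the proteins or dampen the kinases were measured in 7 of 8 cases. In enriched against control 1 passed higher (Dusp6, a MAP kinase phosphatase, 0.45 ± 0.19) and 0 lower (Cops5 -0.19 ± 0.09), with 0 in stress against control (Itch 0.23 ± 0.15, Dusp5 -0.33 ± 0.24) and in stress against enriched (Cops5 0.12 ± 0.09, Dusp6 -0.37 ± 0.19). Among described AP-1 targets, 9 of 10 tested, none passed unadjusted in any comparison. The medians were 0.23, 0.17 and 0.08 in enriched against control, stress against control and stress against enriched. The glutamate receptor gene Gria2, a described DeltaFosB target, was at 0.46 ± 0.21 in enriched and 0.43 ± 0.21 in stress against control. Timp1 was at -0.93 ± 0.54 in enriched against control and Penk at -0.35 ± 0.22 in stress against control, with Mmp9 at 0.28 ± 0.50 and Ccnd1 at -0.13 ± 0.14 in stress against enriched.

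Across the 9 libraries, the members were compared in pattern by Pearson's r of log2 CPM, as a description with no test, since the libraries share groups and tissue makeup. Fosb and Fosl2 were most alike (0.87), then Fos and Fosb (0.74) and Fos and Fosl2 (0.64), while Jun and Junb hardly shared a pattern (0.04) and Fos and Jund ran opposite (-0.58). Of 14688 other genes, the 3 most like Fos were Pparg (0.942), Maml3 (0.906) and Zbtb25 (0.902). For Fosb they were Aldh1a3 (0.966), Egr2 (0.96) and Slc16a14 (0.933), and for Fosl2 Ppp2r5a (0.959), Pak6 (0.951) and Frzb (0.945). For Junb they were Rtp1 (0.937), Vip (0.936) and Slc37a1 (0.921). The ranking ran over 14688 genes and 9 libraries, and nothing about shared control follows from it.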

How the data were processed

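Oligo(dT)-selected RNA was copied with random hexamers and sequenced as DNA nanoballs, per the labels' protocols, which mention neither strand marking nor molecular identifiers. RSEM 1.2.12, Bowtie2 2.2.5 and HISAT2 2.0.4 are listed in the submitters' processing notes with the build GRCm38.p6, and their roles are not given there. The authors deposited, for each transcript, an estimated count (56.5% not whole), a TPM and an FPKM, per the file headers, and the FPKM was not used. Between 3.93% and 4.33% of each library's TPM was missing from the 65535 transcript rows of the table used here. Transcripts without a row could not be analysed, and why they have none is not known. A gene sum can therefore lack a transcript, as for Jund, with a row for 1 of 2 annotated transcripts.

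Estimated counts were summed by gene and rounded, and 18398 of 18450 gene identifiers were given symbols from the RefSeq table of GRCm38.p6. Genes were filtered by filterByExpr (minimum count 10, total 15), scaled by TMM (factors 0.964 to 1.025) and fitted over all 9 libraries with edgeR 4.0.16 (robust quasi-likelihood, 6 residual degrees of freedom, Benjamini-Hochberg, threshold 0.05) in R 4.3.3, and transcripts likewise. Alternatives used DESeq2 1.42.0 and limma 3.58.1. The code was tested on simulated data. Transcript shares were compared by exact permutation tests. Replicates were numbered in accession order and pair nothing. The chi-square per gene between libraries was at least 7.63, so none was a repeat of another.

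The members, pathway lists and markers were chosen with earlier results of these data known. From each list, the text names the gene with the smallest p on each side in each comparison, and for Fos, Fosb, Fosl2 and Junb the 3 genes most like each in pattern. Of the genes this rule names, 2 are not reported here.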

Additional observations from a re-analysis of the deposited data

How the results depend on the processing

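No member of the Fos and Jun families passed the adjusted threshold by edgeR with all libraries. DESeq2 called 7 genes in stress against control and 40 in enriched against control (edgeR 0 in each), among them Fosb (adjusted p = 0.0114) and Fosl2 (adjusted p = 0.014). With the code letter (C or D) in the titles as a covariate, edgeR found 3 genes in stress against control and 1 in stress against enriched. That letter is C in all stress and D in all enriched libraries, so the estimate between these groups rests on the 3 control libraries for the letter. Leaving out 1 library at a time gave 0 to 1586 calls in enriched against control (1586 without control replicate 3, 33 without enriched replicate 2) and 0 to 2 in stress against enriched (2 without enriched replicate 2). Without control replicate 3, edgeR's adjusted p was 0.0442 for Fosb, 0.0436 for Fosl2 and 0.0479 for Jund (log2 fold change -0.56). Over the settings other than left-out libraries, the adjusted p in enriched against control ran from 0.0114 to 1.0 for Fosb, from 0.014 to 1.0 for Fosl2 and from 0.206 to 1.0 for Jund. With 1 library left out it ran up to 0.604, 0.604 and 0.625. Genes with an unadjusted p under 0.05 numbered 1172, 2994 and 388 in stress against control, enriched against control and stress against enriched. With the length trend removed they numbered 1205, 1805 and 410. Under other settings they numbered 293 to 3593, 195 to 3258 and 110 to 672, and with 1 library left out 393 to 3555, 1016 to 5384 and 223 to 578.

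Fos, Fosb and Fosl2 stayed above 0 in enriched against control and below 0 in stress against enriched under every setting run, but their sizes moved. With the length trend removed from each library, Fosl2 in enriched against control fell from 1.29 to 1.05 ± 0.3. Fosb was also lower there, while Fos was higher, at 0.9 ± 0.27. Fosl2 in stress against control fell from 0.25 to 0.1 ± 0.3, and in stress against enriched it was -0.95 ± 0.3. With the first principal component as a covariate, enriched against control was 0.51 ± 0.43 for Fos (unadjusted p = 0.265, edgeR). It was 1.51 ± 0.43 for Fosb (unadjusted p = 0.00735, edgeR) and 1.11 ± 0.48 for Fosl2 (unadjusted p = 0.0501, edgeR). Stress against enriched was then -0.47 ± 0.28 for Fos (unadjusted p = 0.131, edgeR). In stress against control, Jun turned to 0.06 on TPM with either pseudocount (1 or 0.1), where the median of all genes lay at 0.12 and 0.14, and to 0.04 with the code letter, Jund to 0.10 with the first principal component, and Fosl2 to -0.10 and Junb to -0.21 with the letter. In enriched against control, the principal component turned Jun to -0.04 and Jund to 0.24. In stress against enriched, it turned Jund to -0.13, and the letter turned Jund to -0.36 and Jun to 0.03. With 1 library left out, stress against control ranged from -0.20 to 0.45 for Fos, from -0.02 to 0.47 for Fosl2 and from -0.10 to 0.33 for Junb, and stress against enriched from -0.22 to 0.03 for Junb and from -0.05 to 0.20 for Jund. Among transcripts, stress against control ranged from -0.29 to 0.26 for Fosb NM_001347586.1, from -0.19 to 0.45 for Fos, from -0.03 to 0.47 for Fosl2 and from -0.11 to 0.33 for Junb. Enriched against control ranged from 0.0 to 0.43 for the Junb transcript and from -0.09 to 1.27 for NM_001347586.1, and stress against enriched from -0.22 to 0.03 for Junb, from -0.04 to 0.20 for Jund and from -1.27 to 0.09 for NM_001347586.1. The difference in the NM_001347586.1 share of Fosb between stress and control ranged from -19.5 to 4.2 percentage points. The cause of these turns was not tested.

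No paired analysis was possible because the replicate numbers were given in accession order and the labels pair no animals across groups. With 3 libraries a group, the 95% intervals of Fosb and Fosl2 span more than 1 log2 unit, Fosl1 was below what this depth can compare, and the division of Fosb reads among transcripts rested on 77 to 283 reads a library.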
